A study of Homo sapiens and Mus musculus with 20 samples.

Results

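Satb1 binding sites of MCF10A cells treated with the topoisomerase II inhibitor ICRF-193 were compared with those of untreated cells. Each site was a ChIP-seq peak, and 2 sites were taken as shared where they had at least 1 bp in common on the human genome hg19. The ICRF-193 list held 37350 sites, of which 21162 were kept, meaning that they overlapped an untreated site, and 16188 were gained. The untreated list held 22877 sites, of which 21262 were kept and 1615 were lost. Together the lists made up 60227 of the 198095 sites in the 5 MCF10A ChIP-seq lists of the series. MCF10A is an established, non-tumorigenic human mammary epithelial line without native Satb1. In both groups the cells expressed full-length Satb1 as a C-terminal eGFP fusion from a cumate-inducible promoter, and chromatin was pulled down with a GFP antibody. The treated cells received ICRF-193 for 2 h before fixation, and the label of the other list names no drug. Since Satb1 was ectopic in both groups, the sites are those of an introduced protein. With only 1 list per condition replicates could not be compared, and no test was run. Intervals are 95% intervals over sites, which cover counting error only, and neighbouring sites are not independent.

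Satb1 is a genome organizer best known from thymocytes, where it binds A/T-rich sequences that unpair readily under negative supercoiling, the base-unpairing regions. It contacts DNA through its CUT domains and a homeodomain. Topoisomerase II passes one DNA duplex through another and so relieves supercoils and tangles, and ICRF-193 is a catalytic inhibitor that holds the enzyme as a closed clamp. The comparison asked where Satb1 was found when torsion was less readily relieved.

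The strongest sites of each class are shown for their base composition, in which gained and lost sites differed. They do not stand for their class as a whole. Gained sites had a mean of 73.9% A/T over 200 bp, kept ICRF-193 sites 72.9% and lost sites 66.6%. Only 8.27% of gained and 8.02% of kept ICRF-193 sites reached 80% A/T. The sequences are the summit base with 50 bases on each side, on the plus strand of hg19. Capitals mark matches to the Satb1 consensus, which comprises CTAATAA with its reverse complement TTATTAG, then CTAATAG with its complement CTATTAG, then CTATTAA with its complement TTAATAG and finally TTAATAA with its complement TTATTAA. Both strands are thus covered, and overlapping matches were counted.
Gained near PTCHD4, chr6:48646475-48646575: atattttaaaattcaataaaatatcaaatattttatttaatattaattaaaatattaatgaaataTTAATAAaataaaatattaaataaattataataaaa
Gained near ANXA10, chr4:168709064-168709164: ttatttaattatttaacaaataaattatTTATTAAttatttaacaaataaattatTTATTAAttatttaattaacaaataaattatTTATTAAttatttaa
Gained near CELF2, chr10:9726285-9726385: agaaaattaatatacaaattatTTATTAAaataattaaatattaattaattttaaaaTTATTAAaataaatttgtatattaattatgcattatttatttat
Lost in CHRNA7, chr15:32375347-32375447: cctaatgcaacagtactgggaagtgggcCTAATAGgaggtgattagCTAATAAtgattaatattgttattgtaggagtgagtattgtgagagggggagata
Lost in NRG3, chr10:84608733-84608833: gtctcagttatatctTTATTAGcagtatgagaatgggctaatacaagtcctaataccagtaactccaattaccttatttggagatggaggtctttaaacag
Lost in DDX4, chr5:55080505-55080605: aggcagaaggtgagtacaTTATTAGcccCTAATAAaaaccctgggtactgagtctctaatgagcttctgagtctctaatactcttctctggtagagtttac
Kept near PGM5, chr9:70931568-70931668: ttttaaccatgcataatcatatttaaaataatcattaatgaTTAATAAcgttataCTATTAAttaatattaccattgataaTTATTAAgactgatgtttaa
The 3 gained sequences consisted almost wholly of A and T, at 97.0%, 97.0% and 95.1%. The 3 lost sequences held 60.4%, 64.4% and 58.4% A/T, and carried 2, 1 and 2 consensus matches.

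The 5 strongest gained sites had fold enrichments between 14.7 and 16.3, where fold enrichment is the authors' ratio of pileup to local background. The strongest lay between genes on chromosome 6 (48646191 to 48646867), 568 kb from PTCHD4, which encodes a patched-domain membrane protein. The next was on chromosome 4 (168708877 to 168709353), 305 kb from the annexin gene ANXA10. The third was on chromosome 10 (9726105 to 9726559), 1114 kb from CELF2, an RNA-binding splicing regulator. The fourth was on chromosome 4 (156225002 to 156225620), 38.6 kb from MAP9, which encodes a microtubule-associated protein. The fifth lay in an intron of EGFLAM on chromosome 5 (38442193 to 38442745), 3.16 kb from a transcription start. The 200 bp around these summits were between 83.5% and 96.5% A/T. The sites near MAP9 and in EGFLAM overlapped ATAC-seq peaks of native and of Satb1-expressing cells, whereas the other 3 overlapped neither.

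The 5 strongest lost sites were weaker, with fold enrichments between 8.94 and 9.52 in the untreated list, and all lay in introns. They fell in CHRNA7 on chromosome 15 (32375234 to 32375537), NRG3 on chromosome 10 (84608639 to 84608927), DDX4 on chromosome 5 (55080396 to 55080727), ATXN1 on chromosome 6 (16712337 to 16712623) and IKZF4 on chromosome 12 (56418198 to 56418517). CHRNA7 encodes a nicotinic acetylcholine receptor subunit, NRG3 a neuregulin ligand, DDX4 a germ cell RNA helicase, ATXN1 ataxin 1 and IKZF4 an Ikaros family zinc finger protein. CHRNA7 is partly duplicated nearby in the genome, so reads there may be shared with the copy. Their A/T content over 200 bp was between 57.5% and 66.5%. The strongest kept site, near PGM5 on chromosome 9 (70931062 to 70932272), had a fold enrichment of 59.0 without the drug and 86.6 with it. The next 2 kept sites, near SLC10A2 and DNAJC19, had 50.8 and 53.6 without the drug, against 85.4 and 79.1 with it. The site near SLC10A2 held 0 consensus matches in 400 bp, and the other 2 held 10 and 8.

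Gained sites made up 43.3% of the ICRF-193 list (42.8 to 43.9). Lost sites made up 7.06% of the untreated list (6.73 to 7.40). These are the shares against which every gene, chromosome and sequence class below was read. When only the strongest ICRF-193 sites were taken, as many as the untreated list held, gained sites were 20.8% and lost sites 20.4%. Gained sites were weak and narrow for their list, with a median fold enrichment of 5.38 and a median width of 305 bp, against 9.48 and 422 bp at kept sites. Lost sites likewise had a median fold enrichment of 5.53 and a width of 242 bp, against 7.60 and 322 bp at kept sites of the untreated list. Among ICRF-193 sites with a fold enrichment from 4 to 5, 85.3% were gained, and at 15 or more only 2 of 4815 were. Of the 6465 untreated sites with a fold enrichment of 10 or more, 0 were lost, which allows a share of up to 0.0464%.

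The number of reads behind the lists was read back from the deposited values. In MACS2 output, peaks at the genome-wide background have fold enrichments in steps worth 1 read. This held for 74.4% of untreated and 81.9% of ICRF-193 peaks. A median of 52 reads covered the summit of such untreated peaks and 34 that of such ICRF-193 peaks, and the lowest were 25 and 16. If both lists were called against the same input, which is not stated, the untreated library held 1.56 times the reads of the ICRF-193 library. On that assumption, the longer list came from the smaller library. The total depth of each library is unknown.

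Lost sites were poorer in A/T than kept sites. Lost sites were 66.6% A/T over 200 bp (66.4 to 66.9), against 72.8% (72.7 to 72.9) at kept sites of the untreated list. Of the untreated sites below 60% A/T, 45.8% were lost (40.7 to 50.9). This share was 25.6% from 60% to 65%, 12.4% from 65% to 70%, 4.61% from 70% to 75% and 1.06% from 75% to 80%. At 80% or more, 0 of 1668 untreated sites were lost, which allows up to 0.180%. Sites below 65% A/T were 33.1% of lost sites but 5.90% of kept ones. The sequences in CHRNA7, NRG3 and DDX4 shown above belong to this group of low A/T content.

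Gained sites showed the opposite, smaller difference, at 73.9% A/T (73.8 to 73.9) against 72.9% (72.9 to 73.0) at kept ICRF-193 sites. The gained share was 18.4% (13.8 to 23.9) below 60% A/T and reached 48.8% (47.9 to 49.7) between 75% and 80%. It was lower again at 85% or more, at 36.3% (32.5 to 40.2), where kept sites had the largest median fold enrichments. The difference of the means depended on the window, since over the central 50 bp gained sites held 76.0% A/T and kept sites 76.3%. It was larger over 1000 bp, at 68.3% against 66.6%. The plot of shares by A/T content shows both gradients.

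**Figure D1:**
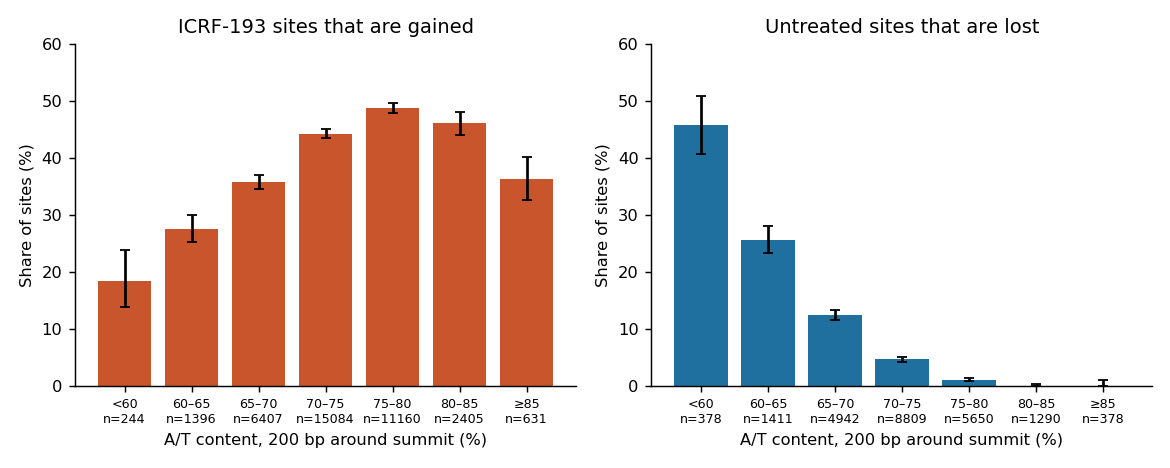
Share of ICRF-193 sites that are gained (left) and of untreated sites that are lost (right), in percent, by the A/T content of the 200 bp around the summit; bars give the share, error bars the exact 95% interval and n the sites in each class. Lost sites go from 45.8% below 60% A/T to 0 at 80% or more, whereas gained sites are most frequent between 75% and 80%.

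Since gained and lost sites were weak, the classes were also compared among sites of like strength. Between fold enrichments of 8 and 10, gained sites were 77.5% A/T and kept sites 72.7%, a difference of 4.78 percentage points (4.40 to 5.17). Between 10 and 15 the difference was 6.99 points (6.18 to 7.80). In the untreated list, lost sites between 6 and 8 were 65.7% A/T and kept sites 72.3%, a difference of -6.57 points (-7.07 to -6.06). In the ICRF-193 list between fold enrichments of 6 and 8, 10.0% of sites below 65% A/T were gained, against 84.8% of those at 80% or more. In the untreated list between 5 and 6, 51.3% of sites below 65% A/T were lost, against 0 of 198 at 80% or more, which allows up to 1.52%.

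**Figure D2:**
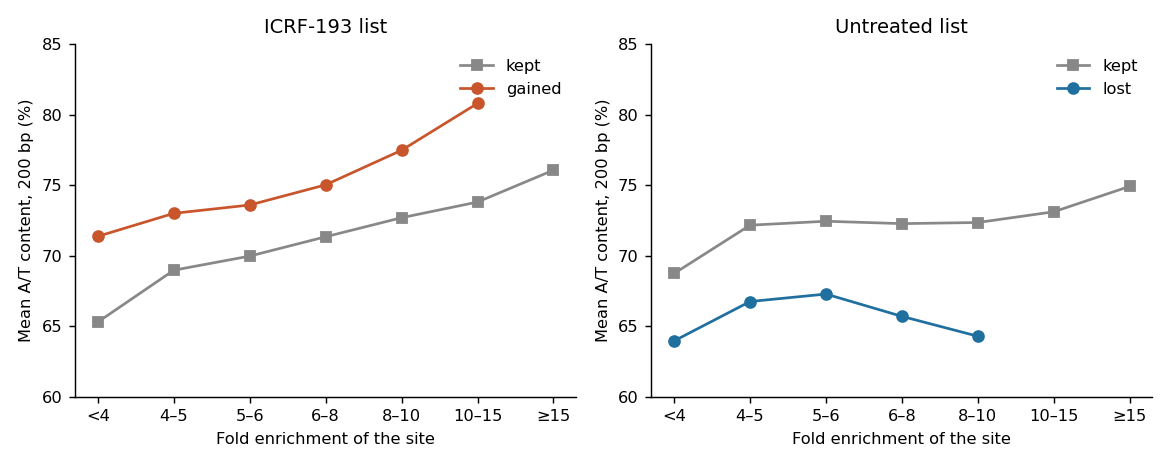
Mean A/T content in percent of the 200 bp around the summit, by the fold enrichment of the site, for gained and kept sites of the ICRF-193 list (left) and lost and kept sites of the untreated list (right). Points of fewer than 20 gained or lost sites are left out, and the axis starts at 60%. Gained sites lie above and lost sites below kept sites at every strength shown.

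Kept sites were shifted along the same axis. In 21050 pairs, 1 untreated site matched 1 ICRF-193 site, with a median distance of 22 bp between summits. The site was wider in the ICRF-193 list in 88.5% of pairs. Pairs below 60% A/T had a median fold enrichment of 7.34 without the drug and 6.22 with it, and 22.2% had the larger value after ICRF-193. From 70% to 75% the medians were 7.33 and 8.90. At 85% or more they were 13.5 and 23.7, and 99.7% had the larger value after ICRF-193. Fold enrichments of separate lists need not share a scale, so ranks among the pairs were used as well. The rank after ICRF-193 minus the untreated rank was -20.8 percentile points (-23.0 to -18.6) below 60% A/T and 15.3 points (13.3 to 17.2) at 85% or more.

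**Figure D3:**
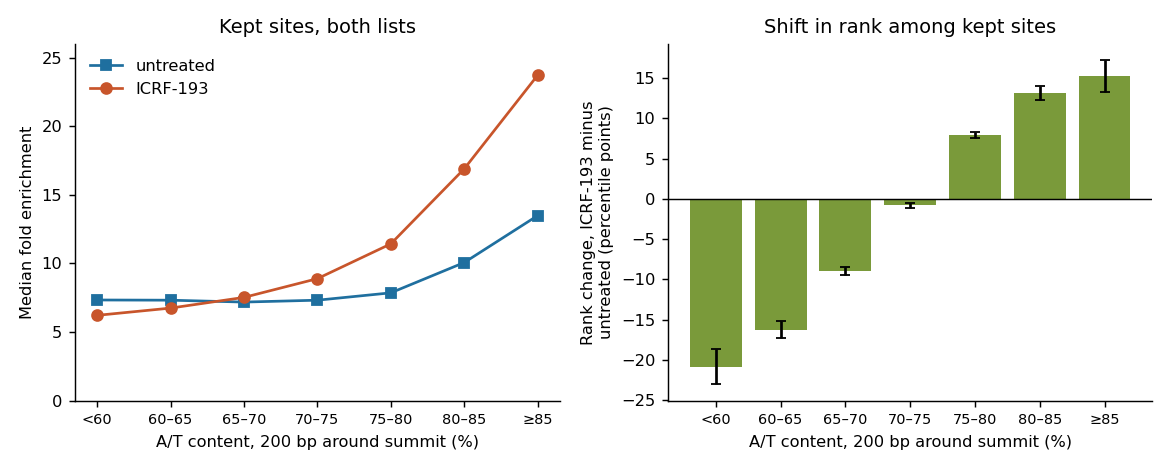
Kept pairs by A/T content of the 200 bp around the summit. Left, median fold enrichment in each list; right, mean rank in the ICRF-193 list minus mean rank in the untreated list, in percentile points with 95% intervals over pairs. The rank change goes from -20.8 below 60% A/T to 15.3 at 85% or more.

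The other full-length list of drug-treated cells, after the topoisomerase I inhibitor camptothecin, had a mean A/T content of 73.5%, the ICRF-193 list 73.3% and the untreated list 72.4%. It contained 28.4% of gained sites, 86.6% of kept ICRF-193 sites and 17.2% of lost sites. Among ICRF-193 sites of like strength, the shares of gained and kept sites were closer. They were 14.2% and 42.4% at fold enrichments from 4 to 5, 47.0% and 77.2% from 6 to 8, and 88.7% and 99.5% from 10 to 15. The lists of the Satb1 constructs ∆HD, without the homeodomain, and N-C1, the N-terminal part with the first CUT domain, contained 91.5% and 95.8% of lost sites. They contained nearly as many kept sites of the untreated list, 88.4% and 95.1%. Of gained sites they contained 55.8% and 69.0%, against 88.5% and 95.3% of kept ICRF-193 sites. Those lists were the longest of the 5, with 50537 and 62856 sites. All these shares rest on classes made with the same untreated list. Gained sites absent from the ∆HD list were 75.8% A/T and those in it 72.4%. Whether the shift in composition belongs to the drug or to the library cannot be told apart with 1 library per condition.

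Consensus matches were fewer at gained sites, with a mean of 2.16 in 400 bp (2.14 to 2.18) against 2.79 (2.77 to 2.82) at kept ICRF-193 sites. Among sites of like strength the difference was smaller. Between fold enrichments of 6 and 8 the means were 2.32 and 2.45, and between 10 and 15 they were 2.76 and 2.77. At least 4 matches were found at 10.7% of gained and 25.6% of kept sites, and no match at 5.61% and 3.23%. The nearest match lay within 20 bp of the summit at 45.1% of gained and 61.6% of kept sites. Lost sites held 2.12 matches (2.07 to 2.17) against 2.77 at kept untreated sites. Between fold enrichments of 6 and 8 these means were closer, at 2.15 and 2.52. The forms of the consensus had other shares at lost sites. The A/T-only pair TTAATAA and TTATTAA made up 51.8% of matches at gained sites, 48.9% at kept ICRF-193 sites and 35.4% at lost sites. CTAATAA and its complement TTATTAG made up 25.0%, 28.5% and 39.3%. When only CTAATAA together with CTAATAG and their complements were counted, lost sites held 1.10 matches and kept sites 1.03.

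Gained sites lay slightly further from genes than kept sites. The summit was inside a protein-coding gene at 38.0% of gained sites (37.3 to 38.8) and 40.1% of kept ICRF-193 sites (39.4 to 40.8). Most of these were intronic, since 36.6% of gained sites were in introns, 1.14% in exons and 0.389% at promoters, from 1000 bp upstream to 100 bp downstream of a start. The median distance to a transcription start was 136 kb at gained sites, 108 kb at kept sites of either list (108 and 109 kb) and 84.5 kb at lost sites. Within 5 kb of a start lay 5.02% of gained sites (4.68 to 5.36), 5.65% of kept ICRF-193 sites (5.34 to 5.97) and 6.63% of lost sites (5.46 to 7.95). The interval of the difference between lost and kept sites, from -0.186 to 2.33 percentage points, included 0. It lay above 0 within 1000 bp of a start (0.0549 to 1.29), at a fold enrichment of at least 5 (0.0967 to 2.50) and with lists of equal length (0.340 to 1.91), whereas a reciprocal overlap of 50% turned the difference to -0.0932 (-0.981 to 0.912). The gained share went from 39.6% (34.3 to 45.1) below 1 kb from a start to 47.9% (46.7 to 49.0) beyond 500 kb, while sites were 72.3% A/T near starts and 74.3% far away.

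Nearly all sites of every class lay outside accessible chromatin as ATAC-seq defines it. The label of the cell line was checked in native cells, where all 12 basal mammary markers, among them KRT5, KRT14 and TP63, had an ATAC-seq peak at their promoter. Of the 9 lymphoid markers 3 did, namely CD8A, RAG1 and RAG2, whereas PTPRC, CD3E and CD3D were among those that had none. In Satb1-expressing cells CD4 had a peak as well. The share over all promoters was not set beside these counts. Peaks of native cells overlapped 2.49% of gained sites (2.26 to 2.74) and 3.74% of kept ICRF-193 sites (3.49 to 4.01), and covered 5.32% of the genome. Peaks of Satb1-expressing cells overlapped 2.74% and 4.82%, and covered 8.26%. For lost sites these shares were 4.27% (3.34 to 5.38) and 6.19% (5.07 to 7.48), and for kept sites of the untreated list 3.35% and 4.5%. In native cells lost minus kept was 0.919 percentage points (0.00158 to 2.04). In each class of A/T content below 80%, however, lost sites were less often accessible than kept ones. Only from 60% to 65%, at 4.71% against 8.1%, did the interval of this difference exclude 0 (-5.90 to -0.295 points). In each class of fold enrichment below 10 the interval of the difference included 0. Among ICRF-193 sites with a fold enrichment under 4, of which only 127 were kept, the share accessible in native cells was 8.25% at gained and 30.7% at kept sites. The difference was smaller among stronger sites. The shares were 2.11% and 5.65% from 4 to 5, 2.79% and 3.41% from 5 to 6, and 1.71% and 3.01% from 6 to 8. From 10 to 15 they were 3.4% and 3.1%, and the interval of the difference included 0. No ATAC-seq list of ICRF-193-treated cells was analysed here.

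Gained sites lay near untreated ones. Their median distance to the nearest untreated site was 27.5 kb, and 86.0% had one within 100 kb. Only 572 of them, or 3.53%, lay within 1 kb of an untreated site without touching it, and 3 lay more than 1 Mb away. Untreated sites were themselves a median of 30.6 kb from the next untreated site. The median distance between neighbouring sites was 16.7 kb in the ICRF-193 list.

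The gained share differed between chromosomes. It was highest on chromosome 4, at 48.1% (46.4 to 49.8), with 18.6 ICRF-193 sites and 10.2 untreated sites per Mb, and on chromosome 13, at 45.6% (43.4 to 47.8). It was lowest on the gene-dense chromosomes 19, at 28.1% (21.5 to 35.4), and 22, at 29.5% (21.9 to 38.1). Chromosome 19 held only 171 ICRF-193 sites, or 2.89 per Mb. The lost share was ordered the other way, at 18.0% on chromosome 19 and 15.5% on chromosome 22, against 5.03% on chromosome 4 and 4.66% on chromosome 13. Over the 22 autosomes and X, Spearman's rho of the gained share was -0.657 with genes per Mb and 0.743 with the A/T content of the chromosome, as descriptions over 23 points. Gene density and A/T content go together along the genome. The sequence 1 to 2 kb on both sides of a site showed the same order, with gained shares of 28.5% below 55% A/T and 50.2% at 70% or more.

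**Figure D4:**
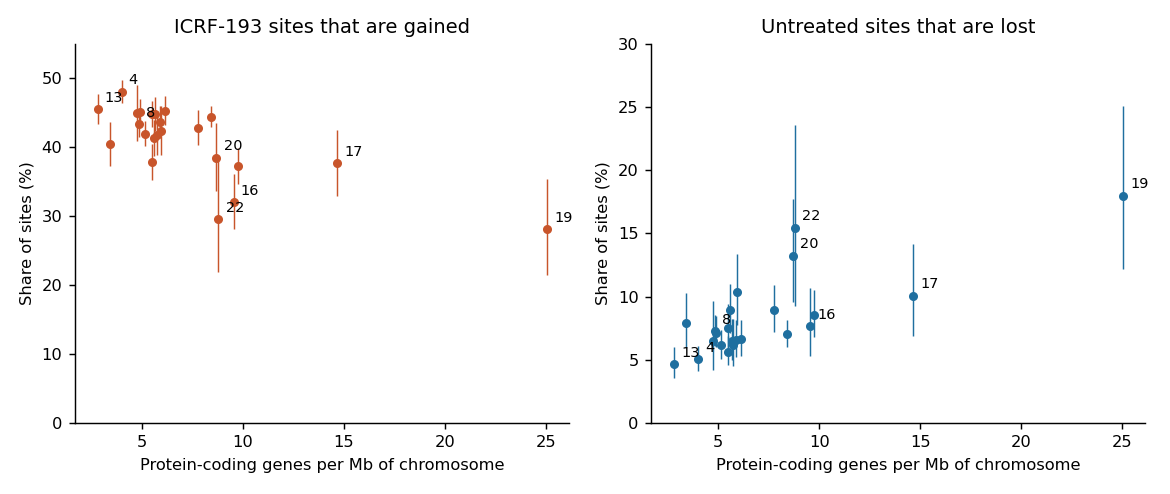
Share of ICRF-193 sites that are gained (left) and of untreated sites that are lost (right), in percent, against protein-coding genes per Mb, for chromosomes 1 to 22 and X; error bars are exact 95% intervals and some chromosomes are named. Chromosome 19 has the lowest gained share (28.1%) and the highest lost share (18.0%).

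The gained share differed little with gene length. Among sites inside genes it was 42.1% in genes of 10 to 30 kb, 40.4% from 30 to 100 kb, 40.8% from 100 to 300 kb, 44.2% (42.7 to 45.6) from 300 to 1000 kb and 42.5% (40.2 to 44.9) above 1000 kb. Genes up to 10 kb had 35.6%, from 90 sites (25.7 to 46.3). The density of sites differed far more, at 3.62 ICRF-193 sites per Mb in genes up to 10 kb and 17.6 in genes above 1000 kb, with 2.57 and 10.9 in the untreated list. The 20 giant and fragile site genes, many of which replicate late, all had gained sites, against 4484 of all 20175 genes. Of the 71 genes above 1000 kb, 98.6% had an ICRF-193 site in their body. The gained share over the 20 giant and fragile site genes was 42.5% (38.9 to 46.1), close to 43.3% of all sites. In this list PTPRD, a receptor tyrosine phosphatase, had 56 gained sites, CTNNA3 had 31 and LRP1B had 29.

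Each site was assigned to the protein-coding gene that held its summit or else was nearest. Of 20175 genes, 6233 had an untreated site and 7200 an ICRF-193 site. Genes that already had an untreated site received 90.7% of gained sites. These genes were long, with a median of 75.2 kb against 27.2 kb over all protein-coding genes. The share that sites placed without regard to genes would give was not computed, so 90.7% has no background here. Another 1195 genes had gained sites and no untreated site, 967 of them with 1 site, and 228 genes had untreated sites and no ICRF-193 site, 222 of them with 1.

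At each of the 10 genes with most gained sites, fewer lay in the gene than around it, and many of these genes encode neuronal adhesion or membrane proteins. CSMD3, a giant transmembrane protein with CUB and sushi domains, had 134 untreated sites and 256 ICRF-193 sites, of which 128 were gained. BRINP3, expressed in neural tissue, had 105 and 227, with 126 gained, and only 15 of these lay in the gene. The sodium-activated potassium channel KCNT2 had 80 gained sites, the protocadherins PCDH7 and PCDH10 had 69 and 62, and SLITRK5, which acts in neurite growth, had 68. TRPS1, a GATA-type repressor, and the cadherin CDH9 had 62 each, TPTE had 60 and the adhesion molecule CADM2 had 59. Their gained shares ran from 43.7% (35.2 to 52.5) at CADM2 to 56.9% (47.0 to 66.3) at PCDH10. The interval lay above 43.3% for CSMD3, BRINP3, KCNT2 and PCDH10, genes picked here for their number of gained sites.

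**Figure D5:**
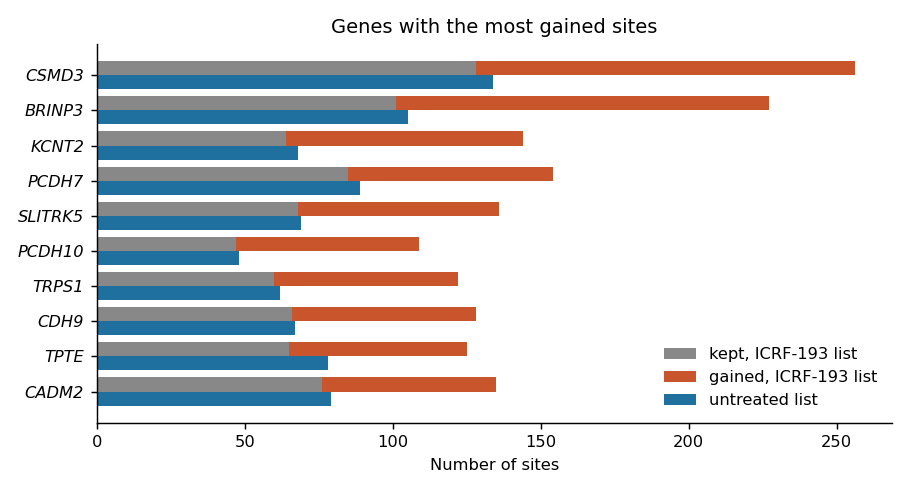
Number of sites assigned to each of the 10 genes with the most gained sites; the upper bar stacks kept and gained sites of the ICRF-193 list and the lower bar gives the untreated list. CSMD3 has 128 kept and 128 gained sites beside 134 untreated ones.

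Among genes without an untreated site, VWDE had the most gained sites, 5, all in its body. AVPR1A, a vasopressin receptor, C1orf53, CCNC, which encodes cyclin C, and CPPED1 had 4 each. The genes with most lost sites were TPTE with 8 of 78 and TENM2, a teneurin, with 7 of 47. PRIM2, a subunit of DNA primase, had 6 of 11, CSMD3 6 of 134 and ARAP2 5 of 39. These genes were picked by number, which favours genes with many sites. Over all untreated sites 7.06% were lost, and CSMD3 lay below that share. PRIM2 also had 21 gained sites among 26, a share of 80.8% (60.6 to 93.5). PRIM2 and TPTE lie beside centromeric or duplicated sequence where reads can be shared between copies.

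The 8 genes for topoisomerases and tyrosyl-DNA phosphodiesterases had 4 untreated and 7 ICRF-193 sites. Of these genes, 5 had an ICRF-193 site and 3 an untreated site, against 7200 and 6233 of all 20175 genes. Of the 7 ICRF-193 sites 3 were gained, or 42.9% (9.90 to 81.6), close to 43.3% of all sites. TOP2A and TOP2B, the topoisomerase II enzymes that ICRF-193 inhibits, had 1 and 2 sites, all gained. Among 19 condensin and cohesin genes, 31 of 55 sites were gained, a share of 56.4% (42.3 to 69.7), of which 16 were nearest to SMC2, a condensin subunit, and none of these lay in it. STAG1 had 5 gained sites and NIPBL 4. Among 18 genes of DNA damage and the decatenation checkpoint, 6 of 28 sites were gained, or 21.4% (8.30 to 40.9), with WRN at 3, XRCC4 at 2 and ATR at 1. This interval lay below 43.3%, in a list with few sites.

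In the list of breast cancer spread and epithelial to mesenchymal transition, 52 of 110 sites were gained, or 47.3% (37.7 to 57.0). Of these, 23 were assigned to N-cadherin CDH2 and 19 to the repressor ZEB2, with only 1 in the body of each gene. Only 14 of the 110 sites lay inside a gene of the list. SATB1 had 2 gained sites and BAZ1A, a chromatin remodeler subunit, had 1. The basal gene TP63 had 6 gained sites of 11 and the lymphoid phosphatase PTPRC had 15 of 41. Protocadherin genes had 317 gained sites of 658, or 48.2% (44.3 to 52.1). Of their untreated sites 14 of 360 were lost, or 3.89% (2.14 to 6.44). At cadherin genes 9 of 343 were lost, or 2.62% (1.21 to 4.92). Both intervals lay below the 7.06% of all untreated sites. Of the 317 gained protocadherin sites, 69, 62 and 57 were assigned to PCDH7, PCDH10 and PCDH9, with gained shares of 44.8%, 56.9% and 45.2%. Only 121 of the 658 sites lay inside a gene. Cadherin genes had 288 of 621, or 46.4% (42.4 to 50.4), and glutamate and GABA receptor genes 207 of 438, or 47.3% (42.5 to 52.1). Zinc finger genes had 219 of 509, or 43.0%, and olfactory receptor genes 107 of 282, or 37.9% (32.3 to 43.9). Ribosomal protein genes had 19 of 41 and keratin genes 5 of 9. Among lists with a site, all but those of the protocadherins and the checkpoint had intervals that included 43.3%.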

How the data were processed

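ChIP-seq and ATAC-seq peak lists of MCF10A cells were analysed, 5 and 2 in number. According to the submitters' processing notes, cutadapt, Bowtie2 (genome hg19) and MACS2 were used for trimming, alignment and peak calling. The versions of Bowtie2 and MACS2 and any pooling of duplicates are not given in the sources used here. Fold enrichment, deposited for each peak, is a ratio over the local background. MACS2 also gave the −log10 p-value, −log10 q-value and score that the authors deposited. A peak list hides binding below its threshold and its length depends on depth.

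Sites were grouped by overlap of at least 1 bp. Kept sites beside gained ones are from the ICRF-193 list and beside lost ones from the untreated list. Consensus matches were counted in 400 bp and A/T content in 200 bp around the summit, leaving out 19 untreated and 23 ICRF-193 sites with unknown bases. Genes were those of GENCODE release 44 on GRCh37. Reads at the summit were taken from peaks whose fold enrichment lay within 0.02 reads of a whole number and whose −log10 p-value followed within 0.01. Shares have exact Clopper-Pearson intervals, and differences have Newcombe or normal intervals, at 95%. Where 0 sites were lost, the share said to be allowed is instead 3 sites over the total. That value is lower than the exact upper bound, at 1.52% against 1.85% for 0 of 198. No test between conditions was run. Members, gene lists and measures were chosen with earlier results of these data known.

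Named sites were the 5 gained, 5 lost and 3 kept with the largest fold enrichment. Named genes were the 10 with most gained sites, the 5 with most gained sites and no untreated site, the 5 with most lost sites and up to 3 of each gene list. A pattern meant to collect histone genes matched 2 genes, and these had no site. On simulated data, 3000 intervals against bedtools, 955 planted matches and 3 simulated lists gave 0 errors. The functions ran in Python 3.11.15 with numpy 2.4.6, scipy 1.17.1, pandas 2.3.3, statsmodels 0.14.6, pysam 0.24.0 and matplotlib 3.10.9, with bedtools 2.31.1 and samtools 1.23.1. Alternatives changed the overlap rule, the peak threshold, the number of ICRF-193 peaks, the windows, the consensus, the annotation and the ATAC-seq list.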

Additional observations from a re-analysis of the deposited data

How the results depend on the processing

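Of 61 recomputed values, 30 stayed within the 95% interval of the value reported, 29 moved beyond it and 2 changed sign from a value whose interval excluded 0. The cause of these changes was not tested. With a reciprocal overlap of 50%, gained sites were 45.7% and lost sites 11.3%. With summits at most 200 bp apart, lost sites were 8.07%. With a fold enrichment of at least 5 in both lists, the shares were 37.3% and 8.87%. With the strongest ICRF-193 sites, as many as untreated ones, they were 20.8% and 20.4%, which lists of equal length bring close together by construction.

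With lists of equal length, gained minus kept was -1.66 percentage points for accessibility, -1.11 for sites within 5000 bp of a start and -3.49 for sites inside a gene. Accessibility differed by -0.359 points where the summit had to lie in the ATAC-seq peak and by -2.08 in Satb1-expressing cells. Nearness to a start differed by -2.40 points with the starts of all genes and by -0.131 within 1000 bp, where the interval (-0.320 to 0.0620) included 0. For lost minus kept sites near a start, whose reported interval included 0, the reciprocal overlap turned the sign to -0.0932. Consensus matches, gained minus kept, differed by -0.572 per site at a fold enrichment of at least 5, by -0.537 with lists of equal length and by -0.333 for CTAATAA together with CTAATAG and their complements. Lost minus kept matches were -0.550 with the reciprocal overlap and -0.330 in 150 bp, and reversed to 0.0663 for those words.

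The alternatives for A/T content were chosen after seeing the data. Gained minus kept was 1.10 points with the reciprocal overlap, 1.20 at a fold enrichment of at least 5, 2.02 with lists of equal length and 1.75 in 1000 bp, and reversed to -0.333 in 50 bp. Lost minus kept was negative in each of the 6 alternatives, at -3.07 with the reciprocal overlap, -5.58 with the summit rule, -5.74 at a fold enrichment of at least 5, -4.98 with lists of equal length, -4.59 in 1000 bp and -5.74 in 50 bp. No paired analysis was possible because no result comes from a test and each condition has 1 list. Without replicates or a known depth, Satb1 may still bind where no peak was called.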
